A study of Mus musculus with 2 samples.

Results

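Sox1, Sox2, Sox3, Sox14, Sox21 and Sox9 are Sox transcription factor genes, grouped here under the name neural progenitor Sox genes. The open chromatin at and around them is described in the newborn mouse hindbrain. The 6 genes were taken by name from the GENCODE M21 annotation of the mm10 (GRCm38) mouse genome, out of 21938 protein-coding genes. DNase-seq, in which DNase I cuts DNA where chromatin is accessible, had been done on hindbrain of B6NCrl mice at postnatal day 0, healthy, with males and females pooled. The 2 biological replicates form 1 group without a second condition. The labels list them as different tissue samples from a single donor entry and do not state how many animals went into each. Whole hindbrain holds many cell types, so fewer cells of a type and less accessibility per cell cannot be told apart. With 1 group of 2 replicates no test over samples was possible, so every value below is a description of these libraries.

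Sox proteins bind DNA through an HMG box, a domain that sits in the minor groove and bends the helix. Sox1, Sox2 and Sox3 form the SoxB1 subgroup, activators that keep neural stem and progenitor cells undifferentiated. Sox14 and Sox21 form the SoxB2 subgroup, mainly repressors, which promote neuronal differentiation or mark subsets of interneurons. Sox9 belongs to the SoxE subgroup and acts in neural stem cells, in the switch from neuron to glia production and in astrocytes. Several of these genes lie in stretches poor in other genes and are known to be controlled by distant enhancers.

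Replicate 1 had 270757 peaks and replicate 2 had 171790, with median scores of 45 and 38. A peak is an interval of about 150 bp called open by the authors in that library, and its score is the authors' own value, whose scaling is not stated, so it was ranked within a list and not compared as a level. A hotspot is a broader called interval with a −log10 q-value that stops at 100. The peaks of both replicates were merged where they overlapped by at least 1 bp, and the 136714 merged regions that hold a peak of each are called shared. Of these, 107430 lay over 500 bp from every annotated start site and are called distal, and each was given to the gene with the nearest protein-coding start. The promoters of all 12 hindbrain markers examined (among them En1, En2, Atoh1 and Hoxb4) had a peak in both replicates, as had all 6 radial glia markers (among them Nes, Vim and Fabp7), 4 of 4 neuron markers, 2 of 3 oligodendrocyte lineage markers and 2 of 3 endothelial markers. Among 6 forebrain markers only Emx2 had it, and none of 3 microglia or 2 choroid plexus markers did. For comparison, the share over all 21938 protein-coding genes was 66.3%. Whether these marker counts reflect the cell types present was not tested.

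The 6 genes had 175 shared distal regions between them, and the highest-ranked region of each is shown first. Regions were ranked by the mean of their score percentiles in both replicates. Each sequence is the stretch covered by the peaks of both replicates, read from the GRCm38 genome, plus strand, 5′ to 3′. Capitals mark matches to the SOX core letters ACAANG on either strand.
Sox1 (chr8:12430256-12430385): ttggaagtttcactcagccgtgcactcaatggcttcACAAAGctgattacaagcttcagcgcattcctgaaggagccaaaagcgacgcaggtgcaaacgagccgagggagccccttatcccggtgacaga
Sox2 (chr3:35088476-35088585): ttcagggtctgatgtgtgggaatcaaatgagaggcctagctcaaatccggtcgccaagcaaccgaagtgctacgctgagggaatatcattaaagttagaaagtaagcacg
Sox3 (chrX:60825556-60825645): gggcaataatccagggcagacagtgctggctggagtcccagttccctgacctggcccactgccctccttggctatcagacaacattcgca
Sox14 (chr9:99846936-99847085): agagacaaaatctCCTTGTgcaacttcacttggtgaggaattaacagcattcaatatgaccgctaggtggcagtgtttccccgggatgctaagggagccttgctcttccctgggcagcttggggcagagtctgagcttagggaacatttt
Sox21 (chr14:118230576-118230705): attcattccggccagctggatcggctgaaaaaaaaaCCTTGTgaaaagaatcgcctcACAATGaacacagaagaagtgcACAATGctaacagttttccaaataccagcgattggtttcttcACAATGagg
Sox9 (chr11:113046316-113046445): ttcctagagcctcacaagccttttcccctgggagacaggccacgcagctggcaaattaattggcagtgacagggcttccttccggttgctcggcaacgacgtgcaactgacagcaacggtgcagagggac

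The Sox1 region lay 35.0 kb downstream of the Sox1 start, in an exon of the overlapping noncoding gene Sox1ot, and scored 114 in replicate 1 and 74 in replicate 2. The Sox2 region lay 438 kb downstream, outside every annotated gene, with scores of 113 and 98. For Sox3 it lay 67.8 kb downstream with scores of 70 and 67, for Sox14 29.2 kb downstream with 96 and 73, and for Sox21 6.39 kb downstream with 92 and 80, all outside annotated genes. The Sox9 region lay 264 kb downstream inside the lincRNA gene 2610035D17Rik and scored 117 and 106, at the 95.3 and 94.8 percentiles of all peaks in its lists. All 6 were thus downstream of their gene, and those of Sox2 and Sox9 were the farthest away.

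The Sox21 element carried the most copies of the SOX core of any of the 175 regions. It held 5 matches in 200 bp, 4 of them in the stretch printed above. A longer core (AACAAT or ACAAAG) was matched in its 200 bp window but 0 times in the printed stretch. Of all 107430 distal regions, 19 held at least 5 matches, or 0.0177%. The Sox1 and Sox14 elements held 1 SOX core match each, and the Sox2, Sox3 and Sox9 elements held 0 in the same window. The longer core was matched in the Sox1 element but not in the Sox14 element. Multiplicity of matches was looked at after the values were seen.

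**Figure D1:**
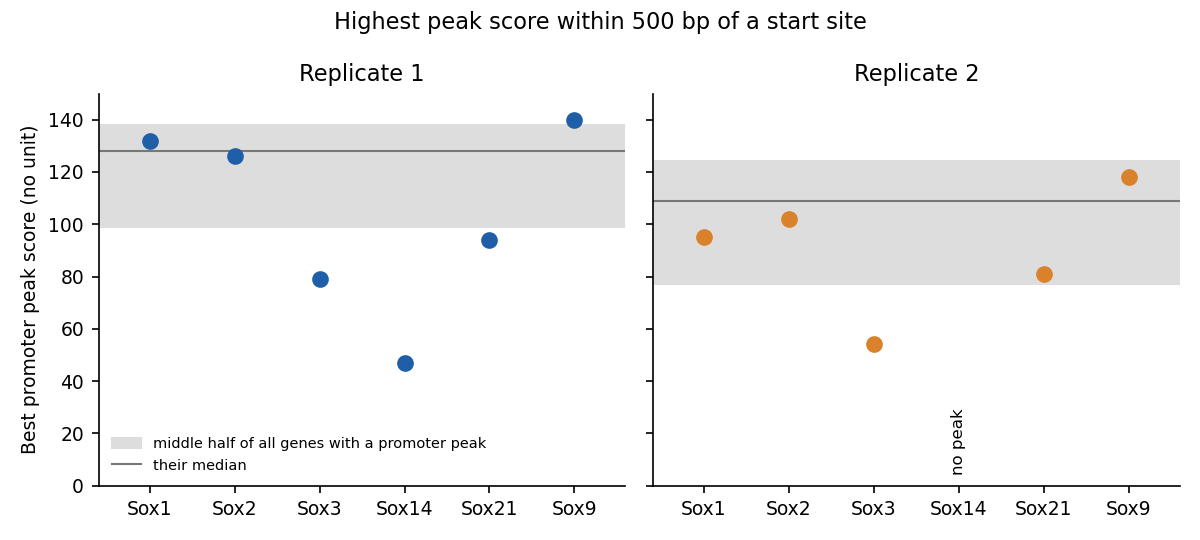
Highest peak score within 500 bp of any start site of each gene, per replicate (score without unit, vertical axis from 0). The grey band spans the lower to upper quartile of all genes with a promoter peak (99.0 to 138 in replicate 1, 77.0 to 124 in replicate 2), the line is their median, and Sox14 has no point in replicate 2.

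The promoters were compared first. Promoter peaks of both replicates were found at Sox9, Sox1, Sox2, Sox21 and Sox3, and at Sox14 a peak of replicate 1 only, which makes 5 of 6, where 66.3% of all protein-coding genes had a peak in both. Replicate 1 alone had a promoter peak at 70.8% of genes and replicate 2 at 66.8%, and promoter hotspots in both stood at 66.7%. Hotspots gave the same 5 of 6. The share among all genes includes genes poor in CpG, whereas the CpG ratio of the 6 promoters ran from 0.603 for Sox14 to 0.961 for Sox2. Among the 10026 genes at or above 0.603, 96.4% had promoter peaks in both libraries, with median best scores of 134 and 117. This CpG comparison was chosen after the values were seen.

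Sox9 had the highest promoter score of the 6 genes in both replicates. Its best peak scored 140 in replicate 1 and 118 in replicate 2, at the 81.1 and 63.1 percentiles of all genes with a promoter peak. The replicates lay on the same side of the median promoter scores, which were 128 and 109. The best peaks were centred 114 and 94 bp upstream of the start, beside the start of BC006965, a noncoding gene on the opposite strand, so openness there cannot be given to either gene. A further shared peak 524 bp upstream scored 108 and 77.

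Among the SoxB1 genes, Sox1 and Sox2 lay near the middle of all promoters and Sox3 low. Sox1 scored 132 and 95, at the 58.4 and 35.9 percentiles, so its replicates lay on opposite sides of the median of all promoters. Its best peak was centred 276 bp inside the gene in both replicates, and a neighbouring shared peak centred 24 bp upstream of the start scored 125 and 89. Sox2, a core factor of neural stem cells and of pluripotent cells, scored 126 and 102, at the 47.4 and 41.9 percentiles. The best Sox2 peaks were centred 494 and 474 bp upstream, near the edge of the promoter window. Sox3, which lies on the X chromosome, scored 79 and 54, at the 17 and 13.5 percentiles, below the lower quartile of promoters in both replicates. Its promoter peak also lay within 500 bp of the start of the antisense gene Gm14662, so openness there cannot be given to either gene.

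The SoxB2 promoters were also low. Sox21 scored 94 and 81, at the 22.6 and 27.0 percentiles, under the lower quartile in replicate 1 and just over it in replicate 2. Its promoter peak also lay within 500 bp of a start of the noncoding gene Gm4675, so openness there cannot be given to either gene. Sox14, a marker of particular interneuron populations, scored 47 in replicate 1, at the 7.24 percentile, and had no peak and no hotspot in replicate 2. A gene without a peak was below the authors' calling threshold, which does not show that its chromatin is closed. In both replicates Sox9 was highest of the 6, followed by Sox1 and Sox2, then Sox21 and then Sox3, while Sox1 stood above Sox2 in replicate 1 and below it in replicate 2. Sox1 and Sox2 are therefore not separated by these replicates. The dot plot of promoter scores shows this order, with Sox3 under the grey band in both panels.

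Among the 6 genes, only Sox9 and Sox2 had promoter hotspots at the q-value limit in both replicates. Hotspots at the limit cannot be ranked against each other. The −log10 q of the widest one reached the limit of 100 in both replicates for Sox9 (1339 and 1215 bp wide) and Sox2 (822 and 406 bp). For Sox1 it was 100 in replicate 1 and 6 in replicate 2, for Sox3 100 and 6, and for Sox21 100 and 3.90. Over the 14641 genes with a promoter hotspot in both replicates, 88.4% reached the limit in both and 7.61% in replicate 1 only. Sox14 had a hotspot of 181 bp with a −log10 q of 2.34, in replicate 1. The comparison of hotspot limits was chosen after the values were seen.

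The stretch covered by the best promoter peaks of both replicates is shown for the 4 genes where it lies wholly upstream of the transcript, since these are the sequences behind the promoter scores. Each is read from GRCm38 on the strand of its gene, 5′ to 3′, and capitals mark the CCAAT box letters CCAAT on either strand (the reverse strand reads ATTGG).
Sox2 (chr3:34649856-34649985): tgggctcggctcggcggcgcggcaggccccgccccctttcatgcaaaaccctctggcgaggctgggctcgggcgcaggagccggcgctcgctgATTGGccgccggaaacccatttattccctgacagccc
Sox3 (chrX:60893436-60893565): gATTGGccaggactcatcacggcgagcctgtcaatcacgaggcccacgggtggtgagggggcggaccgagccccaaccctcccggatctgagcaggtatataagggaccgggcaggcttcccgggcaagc
Sox21 (chr14:118237036-118237165): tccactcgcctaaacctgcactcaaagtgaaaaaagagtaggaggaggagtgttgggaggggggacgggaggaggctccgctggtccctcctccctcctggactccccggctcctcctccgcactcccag
Sox9 (chr11:112782056-112782185): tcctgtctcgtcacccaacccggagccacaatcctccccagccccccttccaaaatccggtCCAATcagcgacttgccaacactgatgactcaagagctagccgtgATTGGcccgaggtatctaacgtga

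GC content of these stretches was 70.8% for Sox2, 66.2% for Sox3, 63.1% for Sox21 and 56.9% for Sox9. The Sox9 stretch held 2 CCAAT matches in opposite orientations, those of Sox2 and Sox3 held 1 each, and that of Sox21 held 0. In the 150 bp just upstream of the start, CCAAT was found in 4 of the 6 genes (Sox1, Sox3, Sox14 and Sox9) and in 27.2% of all protein-coding genes. The GC box letters GGGCGG were found there in 3 of the 6 (Sox2, Sox3 and Sox14) and in 35.0% of all. The TATA box letters TATAAA were found in 0 of the 6 and in 7.19% of all, and the SOX core in 0 of the 6 and in 20.6% of all. Only the exact letters TATAAA were counted. The Sox3 stretch printed above reads tatataag near its end, a TATA-like run that this search leaves out, so the 0 does not exclude a TATA box. Both strands were searched. These matches are letters, not bound sites, and the search was chosen after the values were seen.

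**Figure D2:**
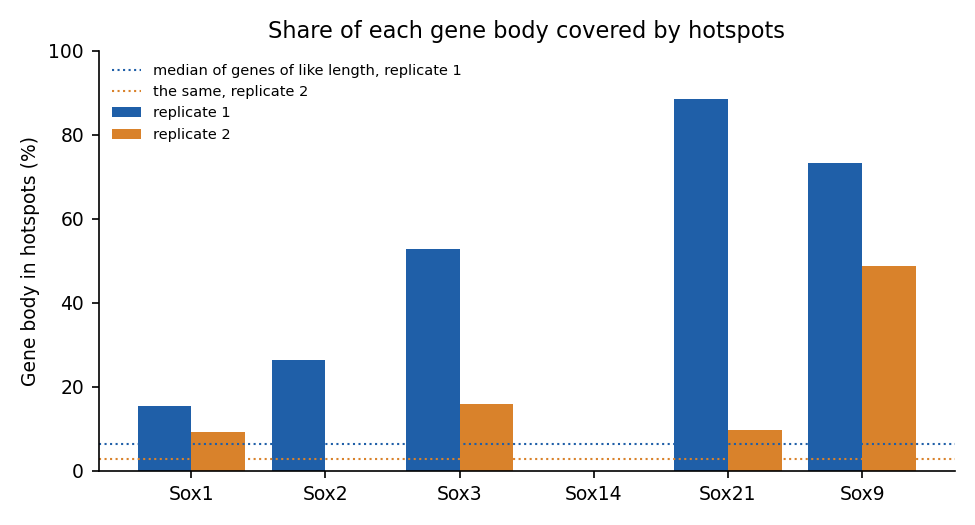
Percent of each gene body covered by hotspots in replicate 1 (blue) and replicate 2 (orange), with dotted lines at the medians of 3016 protein-coding genes of like length (6.25% and 2.79%). Sox21 is high in replicate 1 only (88.4% against 9.69%), Sox9 in both (73.2% and 48.8%), and Sox14 has no hotspot in its body.

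The 6 genes are short, from 2057 bp for Sox2 to 5537 bp for Sox9, and in several the hotspots covered much of the gene. Sox9 had 73.2% of its length in hotspots in replicate 1 and 48.8% in replicate 2, ranks 58 and 123 among 3016 protein-coding genes of 2057 to 5537 bp. Sox9 had 10 and 8 peaks in its body, 8 of the 10 also found in replicate 2, with scores of 45 to 86 and 31 to 66. Sox21, a single-exon gene, had 88.4% of its length in hotspots in replicate 1, rank 16, and 9.69% in replicate 2. Its promoter and most of its body lay in a single hotspot of 3942 bp in replicate 1 (chr14:118233752-118237693), where replicate 2 had a promoter hotspot of 371 bp. Of 7 Sox21 body peaks in replicate 1, 1 was found in replicate 2. The replicates thus differed most at Sox21, and this was not tested.

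Sox3 had 52.7% and 15.8% of its body in hotspots, with 3 body peaks in replicate 1 and 1 in replicate 2. For Sox2 the cover was 26.4% in replicate 1 and 0% in replicate 2, and for Sox1 it was 15.5% and 9.31%. Sox1 and Sox2 each had 2 body peaks in replicate 1, scoring 68 and 68 and 69 and 72, and 0 in replicate 2. Sox14 had neither a peak nor a hotspot in its body. Cover was higher in replicate 1 in each of the 5 genes with any, in the library with the longer peak list, as the bar plot of gene body cover shows. It was examined after the values were seen.

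Distal regions made up most of the peaks. By the rule, 402 peaks of replicate 1 and 235 of replicate 2 belonged to the 6 genes, of which 11 and 8 lay at the promoters, 24 and 11 in the gene bodies and 367 and 216 were distal. In this count body peaks are kept apart from distal ones, whereas a shared distal region may lie in a gene body. A further 17 and 14 peaks nearest to these genes lay at the start of another gene and were not counted. Of the 402, 183 overlapped a peak of replicate 2, or 45.5% (exact binomial 95% interval 40.6 to 50.5, counting error only), and over all peaks of replicate 1 the share was 51.6%. Of the 235, 191 overlapped a peak of replicate 1, or 81.3% (75.7 to 86.1), against 82.5% over all. Sox9 had 176 and 96 peaks, Sox2 107 and 64, Sox14 43 and 21, Sox21 29 and 15 and Sox3 17 and 9, so replicate 1 had more at each of these, while Sox1 had 30 and 30. Shared peaks of replicate 1 had a median score of 61.0 and those it did not share 36.0.

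**Figure D3:**
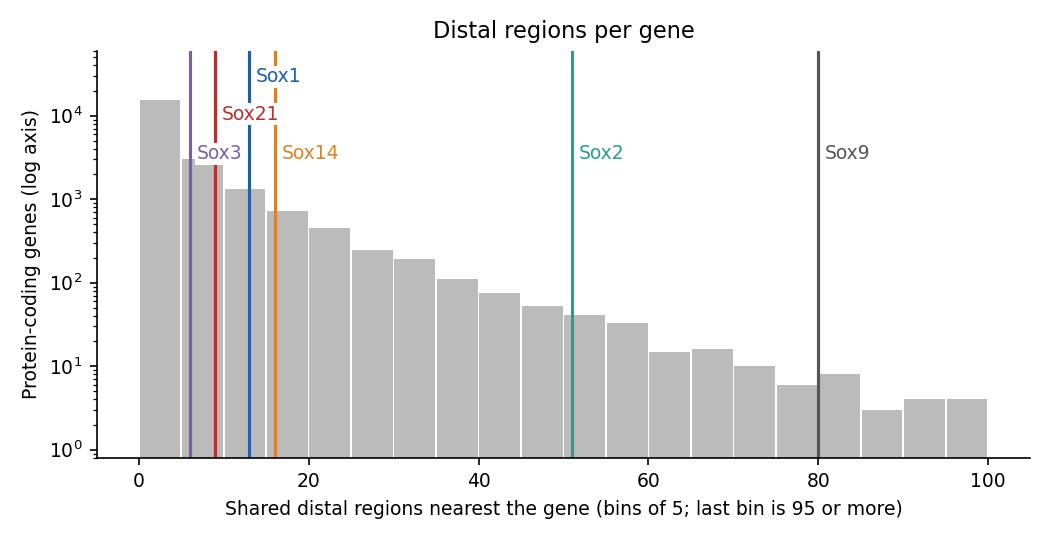
Number of shared distal regions per protein-coding gene (bins of 5, log vertical axis), with a line at each of the 6 Sox genes. Sox9 with 80 and Sox2 with 51 lie in the sparse right tail, while Sox3 with 6 lies near the bulk of genes, whose median is 2.00.

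Sox9 had 80 shared distal regions, Sox2 51, Sox14 16, Sox1 13, Sox21 9 and Sox3 6. The median over protein-coding genes was 2.00 and the mean 4.90. Sox9 ranked 18 by number, level with Sox11, and Sox2 ranked 116, level with Sox6. Sox14 ranked 1678, Sox1 2215, Sox21 3332 and Sox3 4728. The histogram of distal regions per gene places Sox9 and Sox2 in its tail.

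The 3 genes with the most regions, Sox9, Sox2 and Sox14, also had the longest stretches of genome nearest to their starts, called territories. A territory ends midway to the next protein-coding start on either side. That of Sox9 was 1250 kb, with the starts of Kcnj2 and Slc39a11 at 1716 and 784 kb. That of Sox2 was 836 kb, between Dnajc19 and Atp11b. The territories of Sox14, Sox3, Sox1 and Sox21 were 372, 296, 147 and 64.9 kb long. Per 100 kb the order changed, to 13.9 regions for Sox21, 8.84 for Sox1, 6.40 for Sox9, 6.10 for Sox2, 4.30 for Sox14 and 2.02 for Sox3, against 3.94 over all territories together. Sox21, with 9 regions, was the densest of the 6, and 92.4% of protein-coding genes were less dense. That share was 80.6% for Sox1, 69.4% for Sox9, 67.5% for Sox2, 55.5% for Sox14 and 39.2% for Sox3. By density Sox9 and Sox2 thus stood much lower than by number. Sox3 was under the value of all territories.

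**Figure D4:**
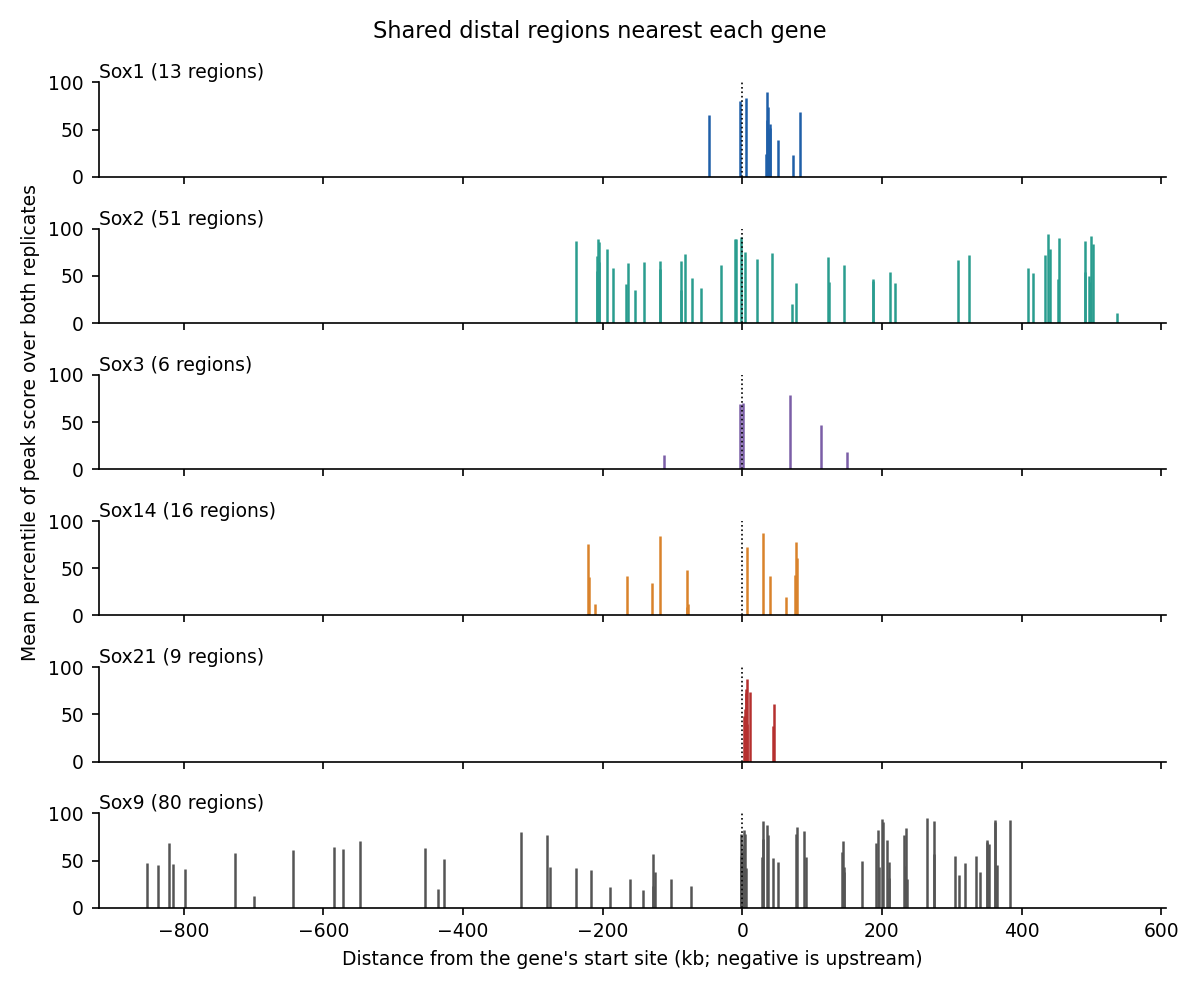
Shared distal regions of each gene by signed distance from its start site (kb, negative is upstream), with line height giving the mean score percentile over both replicates (0 to 100). The Sox9 and Sox2 regions spread far to both sides of the start, the 9 Sox21 regions lie within 45.4 kb downstream, and a group of Sox2 regions stands 434 to 502 kb downstream.

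The distances differed between the genes. Sox9 had 47 regions 100 to 500 kb from its start and 11 farther away, and Sox2 had 35 and 2. Sox1 and Sox21 had 0 beyond 100 kb, which was fixed by their territories. The neighbouring starts lay 116 and 178 kb from Sox1 and 99.9 and 29.9 kb from Sox21. Of the 9 Sox21 regions, 6 lay within 10 kb. Of all 175, 24 lay within 10 kb and 104 beyond 100 kb of the start, while over all distal regions 31.3% lay within 10 kb and 22.5% beyond 100 kb. Only a long territory can hold far regions, and these shares are not matched for territory length. The scores did not stand apart, with medians of 60.0 and 41.0 in the replicates against 60.0 and 40.0 for all distal regions. A mean percentile of at least 90 was reached by 12 of the 175, 8 at Sox9 and 4 at Sox2, and by 6.64% of all distal regions. The replicates ordered the 175 regions alike, with Spearman's rho 0.847 over these regions of the same 2 libraries, against 0.885 over all distal regions. The score was the higher number in replicate 1 at 167 of the 175, and at 96.0% of all distal regions. As the scaling of the score is not stated, this does not show a difference in openness.

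**Figure D5:**
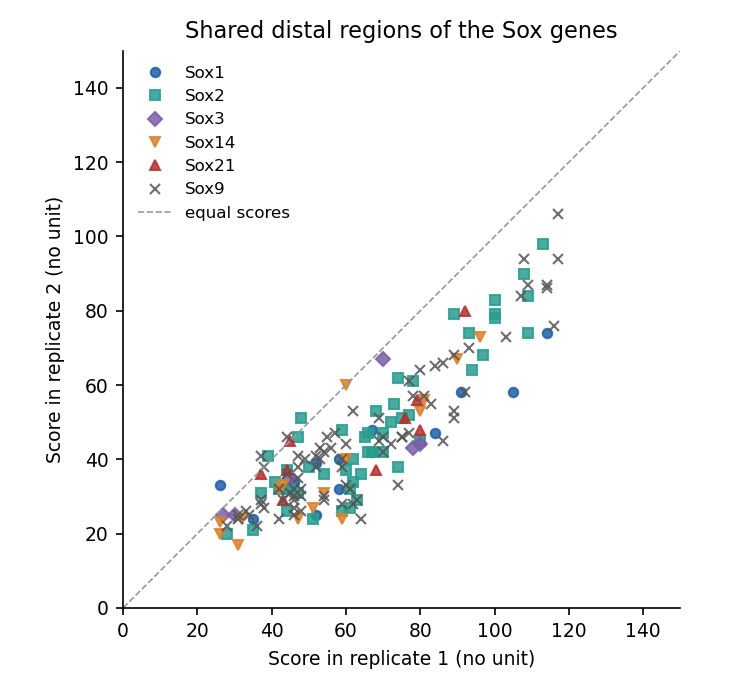
Score of each of the 175 shared distal regions in replicate 1 (horizontal) and replicate 2 (vertical), by gene, with a dashed line of equal scores. In 167 of 175 the score is the higher number in replicate 1, which does not show greater openness there. The regions highest in both belong to Sox9 and Sox2.

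Around Sox1, 11 of 13 regions lay downstream, and 9 of 13 inside Sox1ot, which runs over the gene on the same strand. Beyond the region printed above, the strongest were 5.64 kb downstream, with scores of 105 and 58, and 3.48 kb upstream, with 91 and 58. A cluster of 10 regions spanned 34.4 to 83.0 kb downstream, and a replicate 1 hotspot 1908 bp wide (chr8:12429769-12431676) held 4 replicate 1 peaks of it. The region at 37.5 kb, with scores of 84 and 47, held both an octamer (ATGCAAAT, the letters of POU factors, which pair with SoxB1 proteins) and a SOX core.

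Around Sox2, 23 regions lay upstream and 28 downstream, and 25 of the 51 were inside Sox2ot, a noncoding gene of 578350 bp that holds Sox2 in it. The strongest near the gene was 2.46 kb upstream, with scores of 109 and 84. Close behind came regions 9.52 kb upstream, with 109 and 74, and 11.0 kb upstream, with 100 and 79. Farther upstream in Sox2ot, regions at 206 and 239 kb scored 100 and 78 and 89 and 79. Of the downstream regions, 11 stood together 434 to 502 kb from the start (chr3:35084556-35152525), all outside annotated genes, and 3 of these 11 reached a mean percentile of 90. Scores in the group ran from 45 to 113 in replicate 1 and from 27 to 98 in replicate 2. After the 438 kb region printed above, those at 499 kb (108 and 90) and 453 kb (100 and 83) were the highest. The grouping was chosen after the values were seen, and nearness to Sox2 does not show that these regions act on it.

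Around Sox3 there were 6 regions. A region 0.830 kb inside the gene scored 80 and 44, and another 3.06 kb upstream, in the antisense gene Gm14662, scored 78 and 43. The 67.8 kb region printed above stood at the 76.2 and 80.8 percentiles of the peaks in its lists. In replicate 1 its score of 70 was below both of these, and in replicate 2 its score of 67 was above them. The other 3, at 112 kb upstream and 113 and 149 kb downstream, scored 27 to 45 in replicate 1 and 25 to 35 in replicate 2.

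Around Sox14, whose promoter had a peak in replicate 1 only, all 16 distal regions lay outside annotated genes. After the 29.2 kb region, the strongest stood 118 kb upstream, with scores of 90 and 67, 76.5 kb downstream, with 81 and 56, and 221 kb upstream, with 80 and 53. A region 7.39 kb downstream scored 60 in both replicates. The widest Sox14 hotspots lay at the 76.5 kb region, 1322 and 1142 bp wide, with a −log10 q of 100 in both replicates. As a set the Sox14 regions ranked lower, with median scores of 52.5 and 31.5 and a median mean percentile of 42.3, the lowest of the 6 genes, against 59.8 for all distal regions, and 0 reached 90.

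Around Sox21 all 9 regions lay downstream, 7 of them within 10.9 kb. The regions at 4.95 and 5.88 kb scored 79 and 56, and 80 and 48, and that at 10.9 kb scored 76 and 51. The widest replicate 2 hotspot of this gene covered the regions from 4.52 to 5.88 kb, over 1964 bp with a −log10 q of 100 (chr14:118230956-118232919), next to the printed region. On the upstream side the start of Gm9376 was 29.9 kb away, and no shared distal region was found. The noncoding gene Gm4675 starts at the same promoter on the other strand.

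Around Sox9, 30 regions lay upstream and 50 downstream, out to 853 kb and 383 kb. Within 2.25 kb upstream and 44.5 kb downstream stood 16 regions, 7 of them in the gene itself, the strongest of those 2.98 kb from the start with scores of 86 and 66. The region 29.1 kb downstream scored 109 and 87 and held a SOX core, an octamer and the homeodomain letters TAATTA. The region at 35.9 kb scored 103 and 73 and held 3 SOX cores. Inside the lincRNA gene 2610035D17Rik lay 15 regions, of which 5 reached a mean percentile of 90, and of the other 65 Sox9 regions 3 did. At 201 kb a region scoring 117 and 94 held 2 SOX cores. By contrast the farthest upstream region, at 853 kb, scored 44 and 36, and none of the 30 upstream regions reached 90. The count inside the lincRNA was made after the values were seen.

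The 175 regions were then searched for letters of factors known to act in neural progenitors, in 200 bp around each centre on both strands. The SOX core ACAANG was found in 74 of 175, or 42.3% (exact binomial 95% interval 34.9 to 50, counting error only), where 37.0% of all distal regions held it, a value inside that interval. By gene it was found in 11 of 16 Sox14 regions (68.8%, interval 41.3 to 89.0), 24 of 51 for Sox2 (47.1%), 31 of 80 for Sox9 (38.8%), 3 of 9 for Sox21, 4 of 13 for Sox1 and 1 of 6 for Sox3. The homeodomain letters TAATTA were in 20 of 175, or 11.4% (7.12 to 17.1), and in 6.89% of all distal regions, below that interval. Those 8 motifs were searched without adjustment for their number, and the regions of a gene are not independent.

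For the rest the shares lay close to those of all distal regions. NFI letters (TTGGCA) were found in 24.0% and 22.1%, the E-box CAGCTG of proneural factors in 20.0% and 20.6%, AP-1 letters (TGANTCA) in 8.57% and 6.98%, the RBPJ letters GTGGGAA of Notch signalling in 5.71% and 4.84%, and the octamer in 2.29% and 1.72%. GLI letters (TGGGTGGTC) were in 0 of 175, which allows a share of up to 2.09% by the exact binomial interval, and in 0.199% of all.

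Other genes of the family gave a frame for these values. Of the 14 other Sox genes, 10 had promoter peaks in both libraries, a share near the 66.3% of all protein-coding genes. Sox7, Sox10, Sox18 and Sry did not have them. Sox4 and Sox11, factors of immature neurons, had promoter scores of 137 and 133, and 139 and 124, with 56 and 80 distal regions. Sox5 and Sox6 had 54 and 51 distal regions with promoter scores of 110 and 76, and 109 and 90. All 8 partner and target genes had promoter peaks in both libraries, beside the same 66.3% of all genes. Of these, Nfia, a partner of Sox9 in gliogenesis, scored 142 and 123, Pou3f2 133 and 126, and Nes, the intermediate filament gene nestin and a Sox2 target, 111 and 68.

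Genes with the most similar values were sought over 4 percentiles (promoter score in each replicate, number of distal regions and regions per 100 kb). Nearest to Sox9 were Psat1 (140 and 117, 44 regions) and Kif2a (138 and 115, 36 regions). Sox2 was nearest to Zfp536 (126 and 100, 47 regions) and Ank2 (126 and 103, 42 regions). For Sox1 Rassf8 was near (130 and 97, 14 regions), for Sox3 Itgbl1 and Ttc6, for Sox21 Tmem63c and BC034090, and for Sox14 9330182O14Rik, which likewise had no promoter peak in replicate 2. This likeness is over 2 libraries.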

How the data were processed

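DNase-seq was done on hindbrain in 2 libraries of 1 group. Per the labels, the authors' files are on mm10, with peaks and hotspots for each library separately and not pooled. The deposited peak value is a score with no stated scaling. The deposited hotspot value is a −log10 q-value. Not given in the sources used here are caller, aligner, version and threshold. The tables hold no read counts, so depth is unknown.

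Peaks on standard chromosomes were joined to GENCODE M21 with Python 3.11.15, numpy 2.4.6, pandas 2.3.3, scipy 1.17.1 and pysam 0.24.0. Promoters are 500 bp to either side of any start site of the gene, and a peak need only touch that window. A percentile ranks a gene's best promoter score among all genes with a promoter peak, or a region's score among all peaks of its library. Gene body means inside the gene and off its promoter windows for peaks, and the whole gene for cover. A shared distal region may lie in a gene body. Assignment and overlap were tested on 2000 made-up peaks of chromosome 3, of which 100% came out right. Exact binomial intervals cover counting error only. The replicates carry no test, and values show only the spread between these samples. Sequences are from the GRCm38 genome.

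The genes, lists and motifs were chosen with earlier results of these data known. Named genes are the 6 members, the 14 other Sox genes, 8 partners or targets, noncoding genes overlapping a member, and the 2 genes most like each member; some genes this rule names are not reported here. Named regions are the best promoter peaks and the highest-ranked, farthest and widest ones; other regions with values were picked after these were seen. Alternatives changed the replicates, score minimum, list length, overlap, windows, gene set, distance and motif.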

Additional observations from a re-analysis of the deposited data

How the results depend on the processing

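Promoter peaks in both replicates stood at 5 of 6 genes under every alternative run that kept both replicates, and at 5 to 6 with either replicate alone. The 175 distal regions became 47 within 50 kb of the start, 10 when the nearest start of any gene, noncoding genes included, was used, 98 with scores at or above the list median, 95 without Sox9 and 219 to 381 with a replicate left out; each of these is a smaller or larger set by construction. The median promoter percentile of 44.6 became 45.4 at the 5′ end only and 35.0 to 35.9 with a replicate left out. The 35.0 without replicate 2 is over 6 genes, since Sox14 enters at 7.24, and over the 5 genes behind 44.6 the replicate 1 median was 47.4; for the other 2 values the cause was not tested. The share of regions with a SOX core, 42.3%, became 28.0% with the longer core (AACAAT or ACAAAG; 25.2% of all distal regions) and 50% with scores at or above the list median (36.5% of all). The share of replicate 1 peaks found in replicate 2, 45.5%, became 61.1% with lists of equal length, against 70.9% over all peaks. Of the 31 alternatives for these results, 20 were counted as leaving the result the same. Among the 20 were the 219 regions and a SOX core share of 36.0% in 150 bp around the centre. This count does not order the changes by size. No paired analysis was possible because there is 1 group and no comparison between groups. Depth is unknown, so it cannot be said how far a peak missing from replicate 2 reflects fewer reads.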

Other observations

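Upstream of Sox1, from 12 to 4 kb before the start, replicate 2 had 13 peaks with scores of 29 to 47, and 12 of these were not found in replicate 1. Replicate 1 had 1 peak there, scoring 76, at the start of Sox1ot. As many replicate 2 peaks without a partner in 8 kb occurred at 12 places in the genome, this stretch among them, and as many replicate 1 peaks without a partner at 50. Over the peaks counted for all 6 genes, Sox1 included, most unshared ones were of replicate 1, 219 against 44 of replicate 2. Of those 44, 13 belonged to Sox1. Peaks at the start of another gene, some of them in this stretch, are not among the 44. The stretch was chosen after its values were seen, and the cause was not tested.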
